A study of Homo sapiens with 6 samples.

Results

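The Krüppel-like factors (KLFs) are a family of transcription factors, and 10 of them other than KLF5 were followed here after KLF5 was silenced in ovarian cancer cells: KLF2, KLF3, KLF4, KLF6, KLF7, KLF9, KLF10, KLF11, KLF12 and KLF13. They were picked by gene name from a deposited table of 29185 genes, and all 10 were found and tested. The question was whether the paralogs rose when KLF5 was lost, or fell with it. RNA was sequenced from SKOV3, an established human ovarian cancer cell line. The control cells (3 libraries) are titled SKOV3_NC, are called sh-NC here and are labelled WT for genotype. The other group (sh-KLF5, 3 libraries) is labelled as a KLF5 knockdown. The knockdown line is stable and was made with a short hairpin RNA in the lentiviral vector pLKO.1-EGFP-Puro under puromycin selection. An effect of the hairpin on other genes cannot be told apart from an effect of losing KLF5 in this design. The paper does not state a vector or selection for the control cells, so an effect of those cannot be told apart either. No drug treatment or time point is given for either group. The sources used here do not say whether the libraries of a group came from separate cultures, so all p-values measure only the spread between these libraries.

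KLF proteins share a block of zinc fingers at their carboxyl end, with which they bind GC-rich DNA and CACCC sequences, and so different members can occupy the same sites. Outside the zinc fingers they differ, and they are commonly sorted by what those parts recruit. KLF2, KLF4, KLF6 and KLF7, like KLF5 itself, mostly activate transcription through acetyltransferases, KLF3 and KLF12 repress it through the corepressor CtBP, and KLF9, KLF10, KLF11 and KLF13 repress it through SIN3. In epithelia KLF5 is known for keeping cells proliferating, whereas KLF4 is known for cell cycle exit and differentiation.

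A knockdown reagent aimed at KLF5 could also match a paralog, so the exact stretches that KLF5 shares with each paralog were searched in the GENCODE transcripts. Over the 16063 protein-coding genes compared with KLF5, the longest shared stretch was 24 bases and was the one in KLF12. KLF9 followed with 22 bases, a length that 3 genes reached, and KLF6 with 20 bases, reached by 8 genes. For KLF7 it was 17 bases, for KLF4 15, for KLF13 14, for KLF3 13 and for both KLF2 and KLF11 12, while KLF10 shared no stretch of 12 bases, the shortest length searched. The 14 bases of KLF13 are an ordinary length, which 3285 of the genes (20.5%) reached. Those of KLF12, KLF9, KLF6 and KLF13 are given here in the sense direction, read from GRCh38 transcripts, because they show where the family resembles KLF5 most and what it has in common with the paralog that fell most.
KLF12: tacaagtgtacctgggaaggctgc
KLF9: gagctgacccgccactaccgga
KLF6: tctgaccacctggccctgca
KLF13: ccacctggccctgc
In KLF5 (chromosome 13, plus strand) the stretches start at positions 73075719, 73075767, 73075845 and 73075850, all in the coding sequence. In KLF12 (chr13:73695637-73695660, minus strand), KLF9 (chr9:70387925-70387946, minus strand) and KLF6 (chr10:3779558-3779577, minus strand) they also lie in coding sequence, and in KLF13 (chr15:31376841-31376854, plus strand) the stretch is untranslated. The hairpin sequence was not used here, so which of these stretches it covers was not tested. Shorter or inexact matches were not searched, so a match of the hairpin to KLF13 or another paralog was not tested either.

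KLF5 itself was measured first. Its normalized count, the reads on a gene divided by a factor for each library, reached 4371, 4425 and 4494 in the sh-NC libraries but 1745, 1440 and 1436 in the sh-KLF5 libraries. The groups did not overlap, and 34.8% of the sh-NC mean was left (log2 fold change -1.53, SE 0.115, adjusted p = 2.47e-07). Here and below, changes were tested with limma on log2(normalized count + 1) with Benjamini-Hochberg adjustment over 15803 genes, a gene passed the test when its adjusted p was under 0.05, and n was 3 libraries per group. Read totals were 15852319 to 17543896 per library in sh-NC and 16009859 to 16871350 in sh-KLF5, and every member had at least 196 reads in every library, and counting error was part of the spread between libraries. Mitochondrial genes took 5.25% to 5.62% of the reads in sh-NC and 4.78% to 5.45% in sh-KLF5. The keratin genes KRT7, KRT8 and KRT18 were abundant in all libraries, and all 3 fell in sh-KLF5, as did MUC16. Thus 4 of the 8 carcinoma markers in the table were lower, beside 6.85% of all tested genes. Of the 2 leukocyte markers in the table, PTPRC was at 3 reads or fewer in every library, whereas CD14 had 151 to 391 reads and did not pass the test (log2 fold change 0.66, adjusted p = 0.0725). Of the 3 endothelial markers, CDH5 was at 3 reads or fewer, VWF had 3 to 10 reads and PECAM1 had 31 to 75 reads and did not pass (log2 fold change -0.61, adjusted p = 0.172). Of the 4 fibroblast markers, DCN and COL3A1 fell, LUM did not pass the test and PDGFRB was too low to be tested. The summed normalized count of this list was 986.8 to 1415 in sh-NC and 344.9 to 637 in sh-KLF5, and the part of any such shift in the KLF results was not tested. In RNA from a whole culture, fewer cells that express a gene and less RNA per cell cannot be told apart.

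The paralogs did not move as a block. KLF2, KLF4 and KLF6 rose by 1.32 to 1.66-fold after KLF5 silencing, KLF13 fell to 32.3% of its control mean and KLF3 to 68.2%, and KLF7, KLF9, KLF10, KLF11 and KLF12 did not pass the test. Thus 5 of the 10 paralogs passed, 3 higher and 2 lower, where 12.9% of all tested genes passed, 6.04% higher and 6.85% lower. With the further limit of a log2 fold change above 1 or below -1 that the study's methods use, 1 paralog was left, KLF13 on the lower side, beside 5.28% of all genes (1.9% higher and 3.37% lower). In 6 of the 10 paralogs the libraries of the groups did not overlap, 4 higher and 2 lower, beside 31.3% of all tested genes. The median log2 fold change was 0.12 over the 10 paralogs and -0.0023 over all tested genes. By subgroup, 3 of the 4 activators rose, 1 of the 2 CtBP-binding members fell and 1 of the 4 SIN3-binding members fell.

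**Figure D1:**
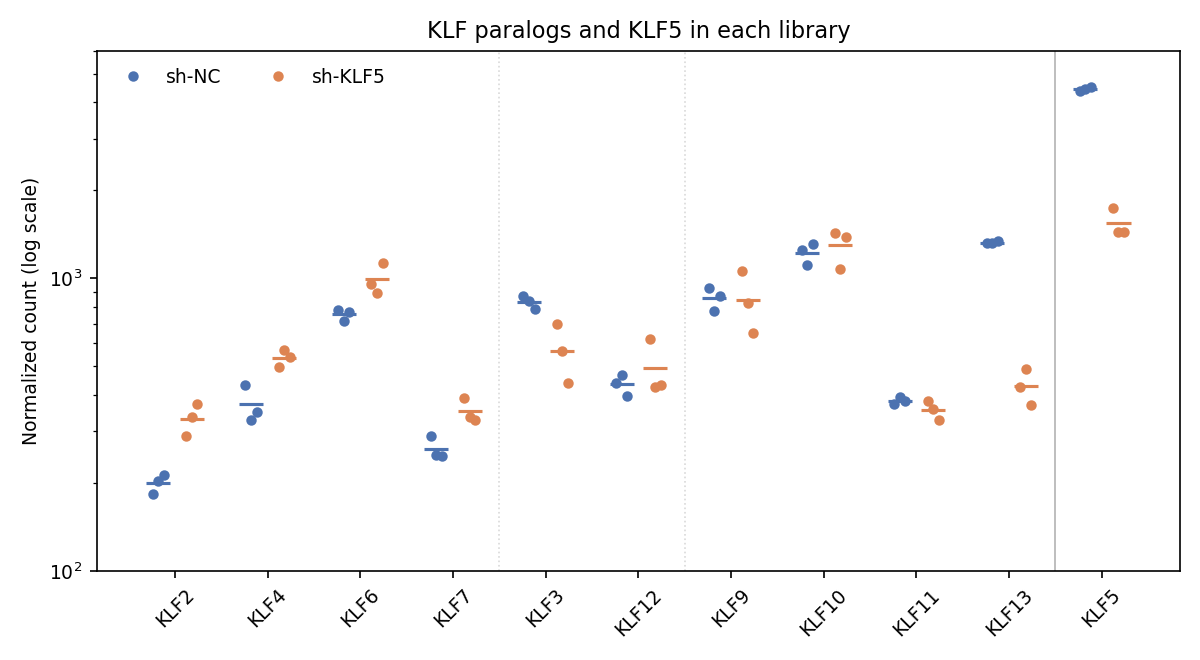
Normalized count of each KLF gene (log axis) in the 3 sh-NC and the 3 sh-KLF5 libraries, 1 point per library, with a bar at the group mean. From left to right stand the activators, the CtBP-binding members, the SIN3-binding members and, after the solid line, KLF5. KLF13 falls from 1324 to 427.7 on average and KLF2 rises from 199.2 to 331.4, while the points of KLF9, KLF10, KLF11 and KLF12 mix.

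**Figure D2:**
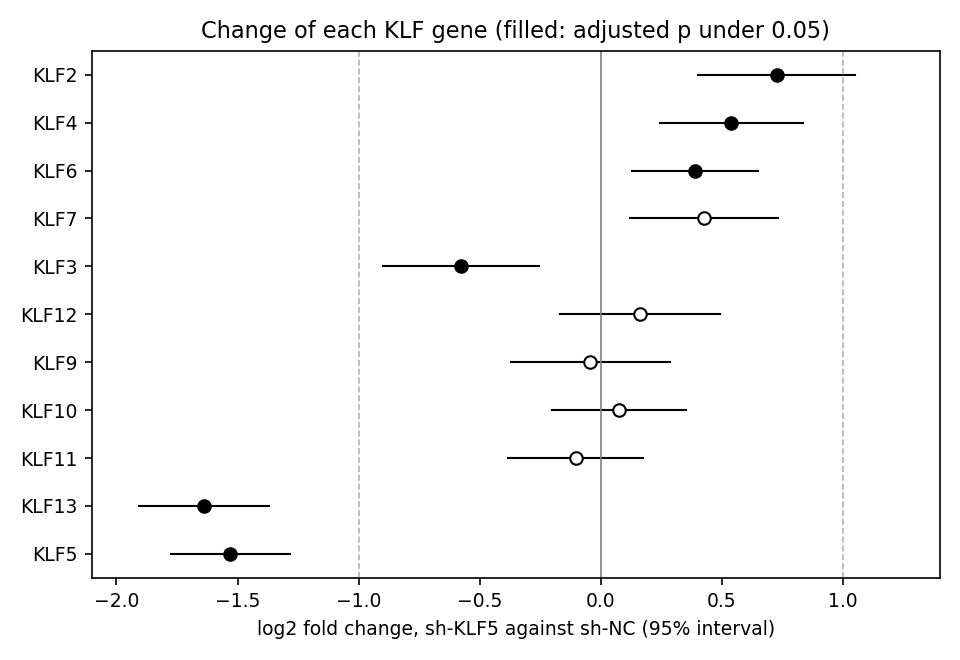
Log2 fold change of each KLF gene in sh-KLF5 against sh-NC with its 95% interval. Filled points passed the test, open points did not, and the dashed lines mark 1 and -1. KLF13 at -1.64 stands next to KLF5 at -1.53, and the 3 filled points above 0 are KLF2, KLF4 and KLF6.

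Among the activators, KLF2 had the largest rise. KLF2 is best known as a factor of quiescent T cells and of endothelium under flow, and lies on chr19:16324817-16327874 (ENSG00000127528, plus strand). It had normalized counts of 182.5, 203 and 212.2 in sh-NC and 288.4, 334.8 and 371 in sh-KLF5. The lowest sh-KLF5 library was well above the highest sh-NC library. The mean rose from 199.2 ± 15.2 to 331.4 ± 41.4 (SD), a log2 fold change of 0.73 (SE 0.153, 95% interval 0.40 to 1.05, adjusted p = 0.00394).

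KLF4, a reprogramming factor and a regulator of epithelial differentiation (chr9:107484852-107490482, minus strand, ENSG00000136826), also rose as RNA. For protein, the study reports lower stemness markers, KLF4 among those blotted, after siRNA knockdown of KLF5 in olaparib-resistant ovarian cancer cells. It also blotted KLF4 in SKOV3 cells with KLF5 knockdown, and reports diminished stemness there that Vimentin overexpression rescued. The blotted markers are further reported to rise with KLF5 overexpression and to fall with the KLF5 inhibitor ML264. Protein was not measured in these libraries. The libraries gave normalized counts of 432, 329.1 and 350.1 in sh-NC and 496.4, 570.5 and 540.4 in sh-KLF5. All sh-KLF5 libraries were above all sh-NC libraries, with sh-NC library 1 nearest to them. The means were 370.4 ± 54.4 and 535.8 ± 37.3 (SD), 1.45-fold apart (log2 fold change 0.54, SE 0.139, adjusted p = 0.0164). The call was lost without sh-NC replicate 2 (adjusted p = 0.116), sh-NC replicate 3 (0.0786) or sh-KLF5 replicate 2 (0.0701), with a rise of 0.46 to 0.50 on the log2 scale in those fits.

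KLF6, which was described as a growth suppressor in prostate and liver cancer (chr10:3775996-3785281, minus strand, ENSG00000067082), showed the smallest rise that passed. It stood at 779.3, 712.4 and 768.2 in sh-NC and at 953, 893.6 and 1127 in sh-KLF5. The groups did not overlap, and sh-KLF5 library 3 was the highest. The log2 fold change was 0.39 (SE 0.123, 95% interval 0.13 to 0.65, adjusted p = 0.0478). This call was the weakest of the 5: it was lost with no filter on low counts (adjusted p = 0.06), when genes needed 10 reads in each library (0.0514), and without sh-NC replicate 1 (0.121), sh-NC replicate 2 (0.215), sh-NC replicate 3 (0.114) or sh-KLF5 replicate 3 (0.167).

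KLF7, which acts in the development of sensory neurons (chr2:207074137-207167267, minus strand, ENSG00000118263), had normalized counts of 289.6, 248.3 and 246.2 in sh-NC and of 389.4, 335.7 and 328.9 in sh-KLF5. These groups did not overlap either. Its log2 fold change of 0.43 (SE 0.144, 95% interval 0.12 to 0.73) was larger than that of KLF6, but its spread left it short of the threshold (adjusted p = 0.0645). With the replicate number as a block it passed (adjusted p = 0.0463).

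Of the CtBP-binding repressors, KLF3 fell. KLF3 is a repressor known from red cell and fat cell development (chr4:38664196-38701042, plus strand, ENSG00000109787). For KLF3 the counts stood at 867.8, 839.5 and 785.2 in sh-NC and 697.1, 564.7 and 437.2 in sh-KLF5. The sh-NC libraries lay close together, and the sh-KLF5 libraries were spread widely below them. The means were 830.8 ± 42.0 and 566.3 ± 130 (SD), with a log2 fold change of -0.58 (SE 0.151, 95% interval -0.90 to -0.26, adjusted p = 0.0182). The call was lost without sh-NC replicate 1 (adjusted p = 0.0768), 2 (0.0805) or 3 (0.0585) and without sh-KLF5 replicate 2 (0.0562) or 3 (0.0755), and the fall ranged from -0.74 to -0.40 over the fits without 1 library. In the annotation, 266 of the exonic bases of KLF3 (4.22%) are also exonic in its antisense neighbour KLF3-AS1, which had at most 4 reads in any library.

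KLF12, first described as a repressor of the AP-2alpha gene (ENSG00000118922, chr13:73686089-73995056, minus strand), did not pass. It stood at 438.5, 469 and 395.8 in sh-NC and at 621.7, 425 and 430.1 in sh-KLF5, where only library 1 was above all control libraries. The log2 fold change was 0.16 (95% interval -0.17 to 0.49, adjusted p = 0.561). KLF12 is both the paralog that shares the longest stretch with KLF5 and its neighbour on chromosome 13, 608547 bases away. Of the 12 genes of the table within 1000000 bases of KLF5, with KLF5 itself counted, 7 could be tested. Only KLF5 passed, beside 12.9% of all tested genes.

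Among the SIN3-binding members, KLF13 changed most, and it was also the most changed of all 10 paralogs. KLF13 (chr15:31326855-31435665, plus strand, ENSG00000169926) is known from T cells, where it was described as a late activator of the chemokine gene CCL5, and from heart development. The normalized counts of KLF13 were 1316, 1319 and 1337 in sh-NC and 425, 489 and 369 in sh-KLF5. The control libraries were nearly identical, and all sh-KLF5 libraries were far below them. The mean fell from 1324 ± 11.4 to 427.7 ± 60.1 (SD), leaving 32.3% (log2 fold change -1.64, SE 0.127, 95% interval -1.91 to -1.37, adjusted p = 3.09e-07). By unadjusted p it ranked 44 among all 15803 genes, next to KLF5 at rank 38, and its change stayed between -1.74 and -1.54 when any library was left out.

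The fall of KLF13 was set beside that of KLF5 in the same libraries. The log2 ratio of KLF13 to KLF5 came to -1.73, -1.75 and -1.75 for sh-NC and -2.04, -1.56 and -1.96 in sh-KLF5. The sh-KLF5 libraries lay on both sides of the controls. The difference in this ratio was -0.11 (SE 0.149), with p = 0.4 in a two-sided exact permutation test. With 3 libraries against 3, this test cannot go below 0.1. KLF13 is the paralog that fell most in these same data, by about as much as KLF5, so a small difference had to follow. This comparison is therefore a description only. The log2 ratio to KLF5 differed between the groups by 0.95 (SE 0.137) for KLF3 and by 1.69 (SE 0.118) for KLF12. The libraries with the most KLF5 left and with the most KLF13 left were not the same: KLF5 was highest in sh-KLF5 library 1 and KLF13 in library 2.

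KLF9, a target of the glucocorticoid and thyroid hormone receptors (chr9:70384597-70414624, minus strand, ENSG00000119138), did not pass. The sh-NC libraries had normalized counts of 927.4, 773.5 and 870.1, and the sh-KLF5 libraries 1056, 825.7 and 652.7. The sh-KLF5 libraries spanned the control range on both sides, and the log2 fold change was -0.04 (95% interval -0.37 to 0.28, adjusted p = 0.894). KLF10 (ENSG00000155090), an early gene of TGF-beta signalling, stood at 1247, 1114 and 1311 in sh-NC and at 1433, 1072 and 1387 in sh-KLF5. Again the sh-KLF5 values lay on both sides of the controls (log2 fold change 0.08, 95% interval -0.20 to 0.35, adjusted p = 0.766). KLF11 (chr2:10042849-10054836, plus strand, ENSG00000172059), which is also induced by TGF-beta and acts in pancreatic beta cells, was even across libraries. It had 370.6, 392.2 and 379.9 in sh-NC and 380.2, 358 and 326.9 in sh-KLF5, with a log2 fold change of -0.10 (95% interval -0.38 to 0.18, adjusted p = 0.668). In the annotation 416 of its exonic bases (9.07%) overlap AC104794.4 on the other strand. The intervals of these 3 genes together run from -0.38 to 0.35 on the log2 scale, so that a change within its interval was not excluded for any of them.

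**Figure D3:**
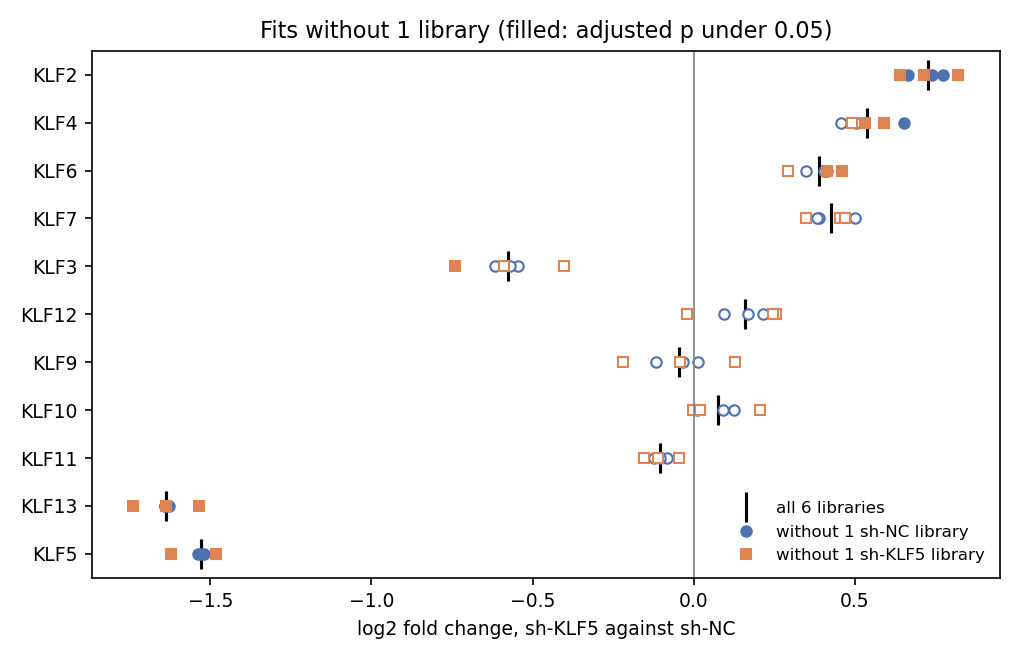
Log2 fold change of each KLF gene with all 6 libraries (black bar) and in fits without 1 library (circles without an sh-NC library, squares without an sh-KLF5 library). Filled symbols passed the test. KLF13, KLF5 and KLF2 are filled in all fits, KLF3, KLF4 and KLF6 in some, and those of KLF9, KLF10 and KLF12 fall on both sides of 0.

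Levels were compared between genes as normalized count per kilobase of the gene length in the table. For these genes that length is the exonic bases of all annotated transcripts together, and which transcripts the cells express was not tested. The order and the sums below depend on it. By normalized count alone, KLF13 averaged 1324 and KLF10 1224 in sh-NC. In sh-NC, KLF5 stood far above its paralogs at 1138 ± 15.7 (SD), and KLF10 was the highest paralog at 305.8 ± 25.1. KLF9 followed at 165.6, KLF13 at 140.7, KLF3 at 131.9, KLF6 at 122.7, KLF4 at 101.2, KLF2 at 98.7, KLF11 at 83.0, KLF12 at 39.8 and KLF7 at 28.2. The library ranges of neighbours in this order overlapped for KLF3 and KLF6, for KLF6 and KLF4 and for KLF4 and KLF2, and for no other pair.

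In sh-KLF5 the order was different. KLF5 dropped to 448.2, 369.9 and 368.8 per kilobase. KLF10 stayed the highest paralog at 358, 267.8 and 346.4, below KLF5 in every library. KLF2 came next at 164.2, then KLF9 at 163.2, KLF6 at 161.5 and KLF4 at 146.4, and each overlapped its neighbour in this row of 4 genes. KLF3 at 89.9 and KLF11 at 77.4 overlapped, and so did KLF13 at 45.5 with KLF12 at 45.1 and KLF12 with KLF7 at 37.9. KLF2 thus moved from the seventh place among the paralogs to the second, and KLF13 from the third to the eighth.

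The sum over the 10 paralogs differed between the groups by less than the spread between libraries. Per kilobase it came to 1256, 1163 and 1234 for sh-NC and 1334, 1190 and 1242 for sh-KLF5, so that the groups overlapped (103.1% of the sh-NC mean, p = 0.5 in a two-sided exact permutation test). Without KLF13, the sum over the other 9 paralogs came to 1116, 1023 and 1092 for sh-NC and 1288, 1138 and 1203 for sh-KLF5, with no overlap (112.3%, exact permutation p = 0.1, the smallest this test can give). KLF13 is the paralog that fell most in these same data, so leaving it out had to raise the percentage. This sum is therefore a description only. With KLF5 included, the sum over all 11 genes came to 2379, 2300 and 2388 for sh-NC and 1782, 1560 and 1611 for sh-KLF5, or 70.1% (exact permutation p = 0.1). The share of KLF5 in that sum went from 48.3% ± 1.11 to 23.9% ± 1.15 (SD). The increase in the activators KLF2, KLF4, KLF6 and KLF7 together, from 350.9 ± 16.7 to 510 ± 37.8 (exact permutation p = 0.1), was smaller than the loss of KLF5 itself, from 1138 to 395.6. For the SIN3-binding members the sum averaged 695.1 ± 36.3 for sh-NC and 610.1 ± 70.4 for sh-KLF5 (exact permutation p = 0.2), and for KLF3 and KLF12 it averaged 171.7 ± 9.38 and 135 ± 29.9 (exact permutation p = 0.2).

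**Figure D4:**
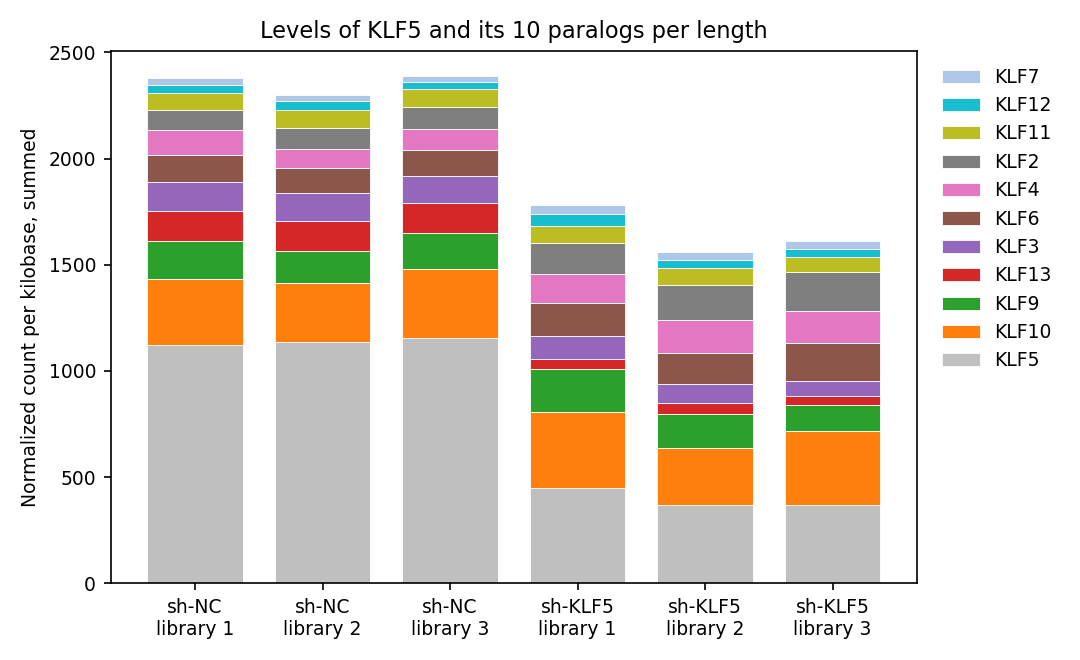
Normalized count per kilobase of KLF5 (grey, bottom) and of the 10 paralogs, stacked for each of the 6 libraries. The stacks reach 2300 to 2388 in sh-NC and 1560 to 1782 in sh-KLF5, and most of the gap between the groups is the grey part, while the coloured parts sum to similar heights.

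Since KLF proteins bind GC boxes and CACCC sequences, the promoters of the paralog that fell most and of the one that rose most are shown. The sequences are the 250 bases before the RefSeq start site on GRCh38.p14, for KLF13 chr15:31326585-31326834 and for KLF2 chr19:16324576-16324825, both on the plus strand, written 5′ to 3′ with matches in capitals. The motifs were searched on both strands with overlapping matches counted. The GC box was taken as GGGCGG, which reads as CCGCCC in the opposite strand. The second motif was CACCC, which reads as GGGTG in the opposite strand.
KLF13: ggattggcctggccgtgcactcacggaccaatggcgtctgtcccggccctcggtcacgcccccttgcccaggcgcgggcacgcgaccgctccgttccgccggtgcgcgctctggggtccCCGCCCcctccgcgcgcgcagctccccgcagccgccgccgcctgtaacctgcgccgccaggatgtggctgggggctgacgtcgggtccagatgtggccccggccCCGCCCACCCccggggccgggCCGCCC
KLF2: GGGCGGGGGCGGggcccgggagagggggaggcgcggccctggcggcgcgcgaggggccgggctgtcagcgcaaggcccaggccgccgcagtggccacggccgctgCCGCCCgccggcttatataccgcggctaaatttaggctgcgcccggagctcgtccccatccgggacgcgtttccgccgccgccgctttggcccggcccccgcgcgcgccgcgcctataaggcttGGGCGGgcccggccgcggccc
In these stretches KLF13 held 3 GC boxes and 1 CACCC match, which overlaps a GC box, and KLF2 held 4 GC boxes and no CACCC. Windows of 300 bases around the start sites were on hand for 8 of the 10 paralogs, 15 windows in all, with KLF3 and KLF10 having none. In them KLF2 held 6 GC boxes, KLF4 4, KLF6 2 and KLF13 3, and of these genes only KLF13 held a CACCC match. Of the paralogs that did not pass the test, KLF7, KLF11 and KLF12 had several windows each, and the counts differed between them. KLF11 held 2 and 7 GC boxes, the latter the most of any window, with 0 and 1 CACCC matches. KLF12 held 5 GC boxes and 5 CACCC matches in 1 window, 0 GC boxes and 5 CACCC matches in another, and neither motif in its others. KLF7 held 4 GC boxes and 1 CACCC match in 1 window. Its others held 0 GC boxes and 2, 1 and 0 CACCC matches. All windows of KLF12 lie beyond position 73995056, where the gene ends in the annotation used for the counts. The window of KLF9, with 32.7% G and C, held neither motif. Of all 35116 such windows, 45% held a GC box and 59.9% a CACCC match, so that such matches are common. No binding was measured in these libraries.

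The rest of the SP/KLF family was described from a list of 16 genes, of which 10 could be tested. None was higher in sh-KLF5 and 1 was lower, SP4, a zinc finger factor of the brain. Of all tested genes, 6.04% were higher and 6.85% lower. SP4 stood at 338, 329.1 and 350.1 in sh-NC and at 286.4, 197 and 219.6 in sh-KLF5, with no overlap (log2 fold change -0.55, SE 0.159, adjusted p = 0.031). This call was also lost without any of the sh-NC replicates and without sh-KLF5 replicate 2 or 3, when none of the list passed, and without sh-KLF5 replicate 1 it was 3 that passed. KLF8 averaged 416.6 and 429.9 and KLF16 429.5 and 440.6 in sh-NC and sh-KLF5, and neither passed. KLF17 averaged 11.5 and 17.7. KLF15, a glucocorticoid-responsive member, had 7, 9 and 0 reads in sh-NC and 25, 18 and 9 in sh-KLF5 and was too low to be tested, as were KLF1, KLF14 and KLF18. The pseudogenes KLF2P1 and KLF2P4, which resemble KLF2, had at most 6 reads in any library and KLF3P1, KLF7P1 and KLF17P1 at most 5. KLF7-IT1, whose name also begins with KLF, had 11, 14 and 0 reads in sh-NC and 2, 7 and 8 in sh-KLF5 and was not tested.

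The corepressors and coactivators through which KLF proteins act were also listed. None of the 12 passed limma's test, beside 12.9% of all tested genes. SIN3A (log2 fold change -0.30) and NCOR1 (-0.27) were the 2 with an unadjusted p under 0.05. CTBP1 and CTBP2, the partners of KLF3 and KLF12, had log2 fold changes of 0.12 and -0.20. Of the genes upstream of KLF genes (the kinase MAPK7, also called ERK5, with MEF2 factors upstream of KLF2 and KLF4, TGF-beta receptors and SMADs upstream of KLF10 and KLF11, and the glucocorticoid receptor upstream of KLF9), 11 of 12 could be tested and 3 rose. Over all tested genes, 6.04% rose. MAPK7 stood at 371.5, 403 and 404.3 in sh-NC and at 558.5, 532.7 and 485.3 in sh-KLF5. It rose with no overlap (log2 fold change 0.42, SE 0.127, adjusted p = 0.0397). The receptors TGFBR2 (log2 fold change 0.96, adjusted p = 1.56e-04) and TGFBR1 (0.50, adjusted p = 0.0254) rose as well, whereas KLF10 and KLF11 did not pass. In this list 1 gene passed without sh-NC replicate 2 and 1 without sh-NC replicate 3, and 5 passed without sh-KLF5 replicate 1. The glucocorticoid receptor gene NR3C1 had a log2 fold change of 0.04, and among 6 tested glucocorticoid targets FKBP5 fell (-0.77, adjusted p = 0.00124) and the others did not pass. Without sh-KLF5 replicate 3, 2 of these targets passed.

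Genes that have been reported as targets of KLF paralogs moved in both directions. Of 16 that could be tested, 4 rose and 3 fell, with a median log2 fold change of 0.00055. Over all tested genes, 6.04% rose and 6.85% fell. CDKN1A, the cell cycle inhibitor p21 that KLF4 and KLF6 are known to activate, stood at 1759, 1321 and 1532 in sh-NC and at 6529, 5829 and 4022 in sh-KLF5. It rose with no overlap (log2 fold change 1.81, SE 0.161, adjusted p = 1.20e-06). S1PR1, a receptor gene that KLF2 activates in T cells, was low and rose from 28.9, 31.5 and 27.6 to 98.9, 81.5 and 57.2 (log2 fold change 1.37, adjusted p = 0.00231). CCND1, the cyclin D1 gene, rose by 0.80 (adjusted p = 1.29e-04).

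CCL5 has been linked to KLF13. This chemokine gene fell from 3857, 3888 and 4456 to 3078, 3403 and 2772 (log2 fold change -0.40, SE 0.119, adjusted p = 0.0351). CDKN1C, the cell cycle inhibitor p57, fell by 2.09 on the log2 scale (adjusted p = 2.92e-07). NOS3, an endothelial KLF2 target, had 29, 21 and 31 reads in sh-NC and 5, 0 and 1 in sh-KLF5, and was lower (adjusted p = 0.0012). THBD, another KLF2 target, had a log2 fold change of -0.09 and did not pass, and neither did TFAP2A, the AP-2alpha gene and target of KLF12 (0.08).

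KLF2, KLF4, KLF6 and KLF10 also respond to serum and stress as immediate early genes do, so such genes were counted beside them. Of 15 tested, 6 rose and 1 fell, with a median log2 fold change of 0.38, where 6.04% of all tested genes rose and 6.85% fell. EGR1, a zinc finger factor, stood at 565.2, 454.2 and 514.6 in sh-NC and at 1112, 1351 and 1643 in sh-KLF5 (log2 fold change 1.41, SE 0.145, adjusted p = 5.99e-06). JUN (1.39), FOSL1 (1.09) and FOSB (0.83), members of AP-1, rose with the growth regulators BTG2 (1.47) and IER3 (0.94). NR4A1, a nuclear receptor gene, fell by 1.32 on the log2 scale (adjusted p = 4.61e-06). FOS, JUNB, ATF3, MYC and DUSP1 did not pass. Whether the state of the cells at harvest had a part in the rise of KLF2, KLF4 and KLF6 was not tested.

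Of 12805 protein-coding genes, those whose values over the 6 libraries were most like KLF13 by Pearson's r on log2(normalized count + 1) were SHROOM3 (r = 0.9997), which shapes epithelial cells, WARS (0.9986), the tryptophanyl-tRNA synthetase gene, and MAP2K6 (0.9982), a p38 kinase activator. All 3 were lower in sh-KLF5, with log2 fold changes of -0.63, -1.10 and -1.53. In 44 genes r was above 0.99, and KLF5 itself came at rank 107 with r = 0.983. These values share libraries and rest mostly on the gap between the groups, so they are a description only.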

How the data were processed

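Polyadenylated RNA of 6 SKOV3 libraries was sequenced (2 groups of 3). Per the submitters' processing notes the tools included HISAT2 2.0.5, featureCounts 1.5.0-p3 and DESeq2 1.20.0 with build hg38, and strand settings are not given in the sources used here. The authors deposited a normalized count (signal) per gene and library, the reads divided by 1 size factor per library. The deposited log2 fold changes and p-values of the authors' own comparison were not used. Gene length and coordinates came from the deposited table and matched GENCODE release 29 in 100% of genes.

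Whole reads were recovered from the deposited values (100% whole within 0.001). Reads are not independent molecules, and a count of 0 allows 3 reads (0.171 to 0.189 CPM), which covers counting error only. Pairs of libraries of a group differed beyond sampling noise. Chi-square per degree of freedom was 4.33 to 8.41 in sh-NC and 10.4 to 30.4 in sh-KLF5. In sh-KLF5 the pairs with library 1 differed most (23.5 and 30.4). The test was limma 3.58.1 (trend, robust; R 4.3.3) on log2(normalized count + 1) for genes passing edgeR's filterByExpr (minimum count 10), after a test on simulated data. Alternatives used edgeR 4.0.16 and DESeq2 1.42.0 on the recovered reads, other scalings, pseudocounts, filters and thresholds, a replicate block, and leaving out each library. Single values were compared with exact permutation tests. The named genes were the 10 paralogs, KLF5, other genes whose name begins with KLF, list members past the test, the 3 genes most like KLF13 and overlapping genes. THBD, TFAP2A, NR3C1, SIN3A, NCOR1, CTBP1, CTBP2 and other list members that did not pass were named after their values were seen. The paralogs and lists were chosen with earlier results of these data known. 1 member of the list of reported targets, counted in its totals, is not reported here by name.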

Additional observations from a re-analysis of the deposited data

How the results depend on the processing

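KLF13, KLF2, KLF3 and KLF4 passed in the same direction under all 10 other tests, scalings, pseudocounts, filters and designs run with all 6 libraries, and KLF13, KLF2 and KLF5 also without any 1 library. Whether the replicate numbers pair the samples was not settled. Deviations of same-numbered libraries correlated only weakly, at 0.059, 0.0331 and 0.0504, although each library correlated best with its own number. With the replicate number as a block, KLF7 passed with a log2 fold change of 0.43 (adjusted p = 0.0463), 2675 genes passed in place of 2038, and no other paralog changed its call. Without 1 library, 1 to 3 paralogs were higher and 1 to 2 lower, 518 to 1272 genes were higher and 699 to 1514 lower (main 955 and 1083), and 0 to 3 of the other SP/KLF genes, 1 to 5 of the inducers and 1 to 2 of the glucocorticoid targets passed. Of the 3 overlapping neighbours in the order of sh-NC levels, 1 was left without sh-NC replicate 1 and 2 without another sh-NC library. Among paralogs that never passed, the log2 fold change ran from -0.2189 to 0.1277 for KLF9, turning without sh-NC replicate 1 (0.0146) and sh-KLF5 replicate 3, from -0.0024 to 0.2066 for KLF10 and from -0.0195 to 0.2544 for KLF12, both turning without sh-KLF5 replicate 1. With the further limit on fold change, 0 paralogs were higher and 1 lower, 301 genes were higher and 533 lower, and 0 other SP/KLF genes, 0 inducers, 4 reported targets and 0 glucocorticoid targets passed. At an unadjusted p under 0.05, 2024 genes were higher and 2110 lower, and 3 other SP/KLF genes, 2 cofactors and 3 glucocorticoid targets passed. With no filter on low counts, 2 other SP/KLF genes passed. The cause of these shifts was not tested. KLF1, KLF14, KLF15 and KLF18 had too few reads to be tested.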
